A study of Mus musculus with 9 samples.

Results

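The genes described here are 9 genes of the TGF-beta pathway in murine primary cells cultured from pancreatic tumors (MPC). They comprise the ligands Tgfb1, Tgfb2 and Tgfb3, the receptors Tgfbr1 and Tgfbr2, the latent TGF-beta binding protein genes Ltbp1 and Ltbp2, and the response genes Smad7 and Tgfbi. They were chosen by symbol for their place in the pathway, with earlier results of these data known. All 9 were found among the 18049 genes in the expression table. Bulk RNA-seq was performed on 9 clones, each from 1 cell colony isolated with a cloning cylinder, and every clone carried the same WTg genotype, EL1-Luc/EL1-Tag x CAG-Mettl3. In these mice the pancreatic elastase I promoter drives luciferase and the SV40 large T antigen in acinar cells, and the broadly active CAG promoter drives Mettl3, an RNA methyltransferase. The labels call the cells fibroblasts from pancreas and give the treatment as none, although their protocol text names the PLK1 inhibitor NMS-P937. There was thus 1 condition, no control group, and no statement of which mouse or tumor each clone came from.

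TGF-beta is secreted in a latent form, folded into its own propeptide and tied to the extracellular matrix through latent TGF-beta binding proteins. Once released by integrins, proteases or thrombospondin, it is bound by the type II receptor, which recruits and phosphorylates the type I receptor, and the type I receptor phosphorylates SMAD2 and SMAD3, which enter the nucleus with SMAD4. In tumors the pathway is known for making fibroblasts contractile and matrix-producing and for restraining macrophages and lymphocytes.

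Values are given as normalized counts, that is, read counts rescaled between libraries, with no correction for transcript length, so levels are compared between clones and not between genes. Clones are named by the prefix of their column name (A for 1 library, B and C for 4 each) and a number that only tells them apart. Depth ranged from 12198037 reads in A1 to 20453901, with a median of 18082577 and 16526370 in the next lowest library. A count of 3 reads, taken as the detection floor, was worth 3.79 to 6.56 normalized counts. All 9 genes were above it in every clone, the lowest value resting on 266 reads, and the 95% Wilson interval reached 1.32% to 12% of the value to either side over 81 values. These intervals cover counting error only. Clone A1 stood apart, with a mean correlation of 0.954 with all other libraries. For each of the rest the same mean, with A1 counted in, was 0.965 to 0.970. A1 also had 2184 normalized counts of Mettl3 against 468 to 621.

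The cells were checked against marker genes. All 16 macrophage markers were above the floor in every clone and held 2.21% to 3.43% of the counts. Of the 14 fibroblast markers 13 were, and that list held 0.126% to 0.480%. These shares depend on which genes are listed, so they do not measure the fractions of cells. Lyz2, a macrophage marker, averaged 407389 normalized counts by itself, while Fn1 (276558) and Col1a1 (85587) were in neither list. Of the epithelial markers, 5 of 7 were in the table and 2 were above the floor in every clone. Epcam, which defines that lineage, had 0 reads in every clone, and Krt8 and Krt18 averaged 0.144 and 1.62 normalized counts. Cdh1 averaged 37.1 (8.91 to 152) and Krt19 55.2 (7.23 to 145). Of the 6 acinar markers, all but Cela1 were at their highest in C3, at 147 (Cela2a) to 609.96 normalized counts (Ctrb1), while the list held 0.000541% to 0.00955% of the counts over all clones. Xist averaged 31700.5 normalized counts in prefix B and was at most 8.39 elsewhere, and Ddx3y, a Y-linked gene, was at 0 in prefix B and averaged 2569 in prefix C, so a difference between these prefixes and one between cells of different sex cannot be told apart.

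Tgfb1 mRNA was lowest in A1, and its measured values were higher in prefix B than in prefix C by a narrow margin. Tgfb1 (ENSMUSG00000002603, chr7:25687002-25705077 in GRCm38.p6, a protein-coding gene like the others) encodes the TGF-beta ligand that leukocytes and platelets are best known to produce. It measured 2739.7 normalized counts in A1, 6314, 5599, 6410.0 and 5321 in B1 to B4, and 4863, 4109.9, 5207 and 5193 in C1 to C4, for a median of 5207 and a mean of 5084 ± 1124 (SD, n = 9). The 4 prefix B clones were all above the 4 prefix C clones, and A1 lay at 0.510 times the mean of the other 8 clones (5377 ± 749).

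Tgfb2 went the other way between the prefixes. Tgfb2 (ENSMUSG00000039239, chr1:186622787-186709697) encodes a ligand that needs the co-receptor betaglycan for strong binding to the type II receptor. It measured 1381 normalized counts in A1, 1178, 379, 612 and 967 in B1 to B4, and 1428, 1313, 1372 and 1272 in C1 to C4, for a median of 1272 and a mean of 1100.2 ± 374 (SD, n = 9). Every prefix B clone was below every prefix C clone, and B clones were also more scattered, at 784 ± 357 against 1346 ± 68.5 in prefix C (SD, n = 4 each).

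Tgfb3 was the ligand that varied most in fold between clones. Tgfb3 (ENSMUSG00000021253, chr12:86056743-86079041) encodes the ligand known for palate fusion and wound repair. It measured 4019.96 normalized counts in A1, 4609, 3214, 1521 and 4671 in B1 to B4, and 1529, 3078, 6978 and 814 in C1 to C4, for a median of 3214 and a mean of 3381 ± 1940.3 (SD, n = 9). The highest clone, C3, was 8.58-fold above the lowest, C4, and both carried prefix C, so the prefixes overlapped.

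**Figure D1:**
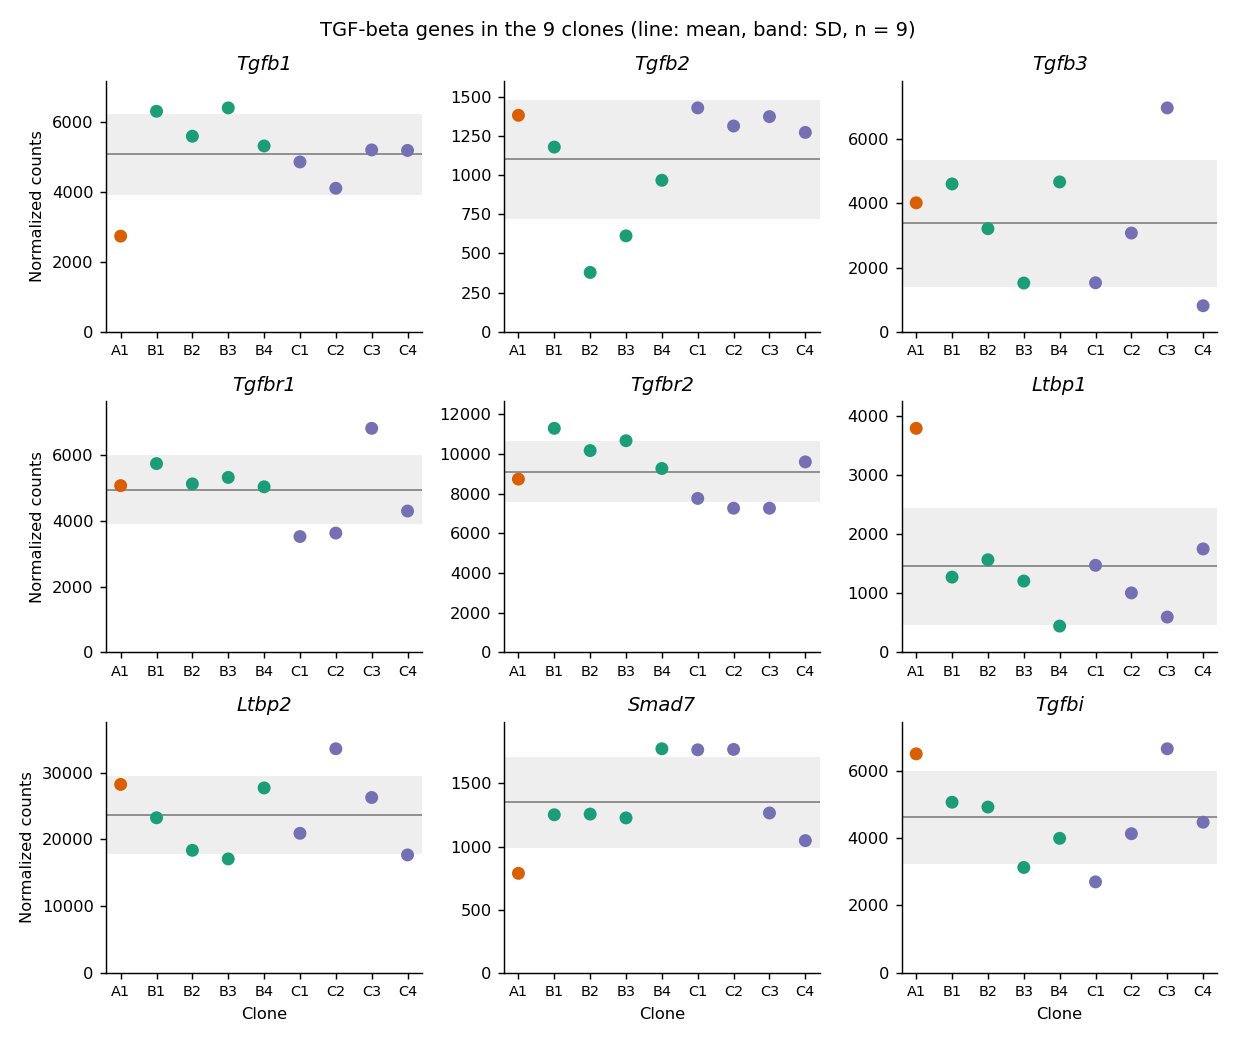
Normalized counts of the 9 TGF-beta genes (vertical axes from 0) in each of the 9 MPC clones (horizontal axes), 1 panel a gene and 1 point a library, with prefix A in orange, B in green and C in purple, the line at the mean and the grey band at 1 SD to either side (n = 9). Tgfb1 is lowest in A1 (2739.7), Ltbp1 is highest there (3799), and Tgfb3 runs from 814 in C4 to 6978 in C3.

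Ltbp1 and Ltbp2 differed in how much they varied. Ltbp1 (ENSMUSG00000001870, chr17:75005480-75392512) encodes a protein that binds the latent ligand covalently and anchors it to the matrix. It measured 3799 normalized counts in A1, 1275.0, 1569, 1208 and 444 in B1 to B4, and 1475, 1007, 597 and 1753 in C1 to C4, for a median of 1275.0 and a mean of 1459 ± 978 (SD, n = 9). A1 was 3.26 times the mean of the other clones (1166 ± 461), and prefixes B and C overlapped. Ltbp2 (ENSMUSG00000002020, chr12:84783212-84876558) belongs to the same family but is known as a microfibril protein that does not bind latent TGF-beta. It ranged from 17064 in B3 through a median of 23229 to 33583 normalized counts in C2, for a mean of 23667 ± 5679, and the highest clone was 1.97-fold above the lowest.

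By fold between the highest and lowest clone, the receptors varied least of the 9 genes, 1.94-fold for Tgfbr1 and 1.55-fold for Tgfbr2. Tgfbr1 (ENSMUSG00000007613, chr4:47353222-47414926), the type I receptor kinase, ranged from 3521 in C1 through a median of 5070.3 to 6814 normalized counts in C3, for a mean of 4950.2 ± 1031 (SD, n = 9). Prefix B clones lay close together at 5305 ± 314, and prefix C clones lay both below and above them, at 4565 ± 1538. Tgfbr2 (ENSMUSG00000032440, chr9:116087695-116175363), the type II receptor kinase that binds the ligand first, ranged from 7261 in C3 through a median of 9264 in B4 to 11288 in B1, for a mean of 9109 ± 1473. Of the prefix C clones, only C4 (9595) exceeded a prefix B clone, so the prefixes overlapped in Tgfbr2 by a single pair of clones, B4 and C4.

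Smad7 and Tgfbi, both known to be induced by TGF-beta, did not share their high and low clones. Smad7 (ENSMUSG00000025880) encodes the inhibitory SMAD that blocks the type I receptor and closes a negative feedback loop. It ranged from 788 in A1 through a median of 1257 in B2 to 1775 normalized counts in B4, for a mean of 1349.98 ± 349.9 (SD, n = 9), and A1 lay at 0.555 times the mean of the other clones (1420.3 ± 298.5). Tgfbi (ENSMUSG00000035493, chr13:56609586-56639359) encodes a secreted matrix protein that binds integrins and collagen. It ranged from 2698 in C1 through a median of 4472 in C4 to 6655 in C3, with 6504 in A1, for a mean of 4619 ± 1349. C1 was thus lowest for Tgfbi and, at 1767, the third highest for Smad7, while A1 was lowest for Smad7 and close to the highest for Tgfbi.

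The spread between clones was set against that of every gene whose mean reached 10 normalized counts, as the SD of log2(normalized counts + 1) over the 9 clones. The median SD was 0.25 and the 90th percentile 0.91 over 14705 genes. Tgfb3 (SD 0.99) and Ltbp1 (0.90) lay at the 91.3th and 89.7th percentiles and Tgfb2 (0.66) at the 83.5th, whereas Tgfbr2 (0.24) lay at the 47.7th. The other 5 lay between the 58.0th (Tgfbr1) and the 70.5th percentile (Tgfbi). Within prefixes B and C, the percentile of Tgfb1 fell to 35.4 and that of Tgfb3 was 95.04. C3 was the highest clone for 3 of the 9 genes, Tgfb3, Tgfbr1 and Tgfbi, against 8.45% of all tested genes, and A1 was highest for 1 and lowest for 2, against 20% and 20.9%.

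**Figure D2:**
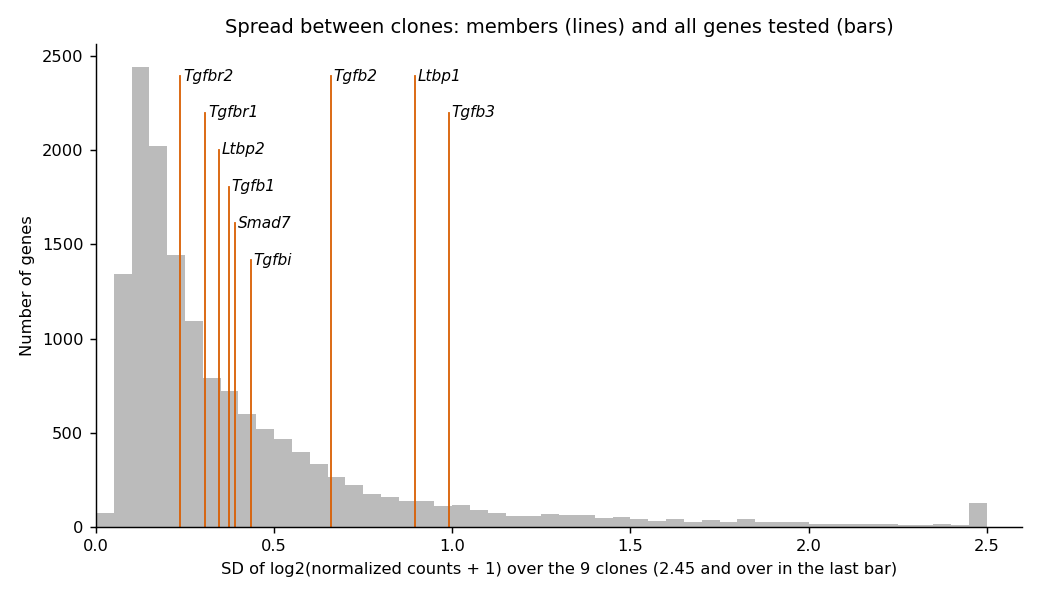
Number of genes (vertical axis) by SD of log2(normalized counts + 1) over the 9 clones (horizontal axis), as grey bars over 14705 genes, with an orange line at the SD of each TGF-beta gene. Tgfbr2 (0.24) lies near the median of 0.25, and Ltbp1 (0.90) and Tgfb3 (0.99) lie near the 90th percentile of 0.91.

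Prefixes B and C, whose meaning is not given in the sources used here, were compared with limma across all tested genes on log2(normalized counts + 1), 4 libraries against 4. None of the 9 TGF-beta genes passed at an adjusted p under 0.05. An unadjusted p under 0.05 was found for 3 of the 9 and for 2963 of 14705 tested genes (20.1%). With voom on the recovered reads, 0 of 9 passed. Over all tested genes, limma called 29 of 14705 (0.197%), 12 higher in prefix B (0.0816%) and 17 lower (0.116%), and voom called 31. Few calls after adjustment do not show that the prefixes barely differ, given the 20.1% with an unadjusted p under 0.05. Tgfbr2 was estimated 0.38 higher in prefix B on the log2 scale (SE 0.11, 95% interval 0.14 to 0.63, adjusted p = 0.156), Tgfb1 0.29 higher (SE 0.098, 0.06 to 0.51, adjusted p = 0.185) and Tgfb2 with a difference of -0.91 (SE 0.31, -1.62 to -0.19, adjusted p = 0.188). For the other 6 genes the adjusted p was 0.441 to 0.968, and the 95% interval for Tgfb3 ran from -0.99 to 1.98. Without B2 the difference of Tgfb2 was -0.60 (adjusted p = 0.184). Without C3, 259 genes were called (1.76%), 160 higher in prefix B (1.09%) and 99 lower (0.673%), and Tgfbr1 was among the higher, with a difference of 0.48 and an adjusted p of 0.0464.

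The values of prefix B lay wholly above those of prefix C for 1 of the 9 genes (Tgfb1) and wholly below for 1 (Tgfb2). Over all tested genes, 10.3% did not overlap, 5.74% with prefix B higher and 4.55% with prefix B lower. The fibroblast markers had a mean log2 value of 10.2 in prefix B and 10.7 in prefix C, and the macrophage markers 14.2 and 13.8. The fibroblast list was not uniform. Dcn, Lum and Tcf21 averaged 1366, 28.1 and 73.4 normalized counts in prefix B against 373, 4.12 and 70.6 in prefix C. The other fibroblast markers averaged less in prefix B. The part of both marker lists in the values of Tgfb1 and Tgfb2 was not tested. In bulk RNA, fewer cells of a type and less RNA per cell cannot be told apart.

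**Figure D3:**
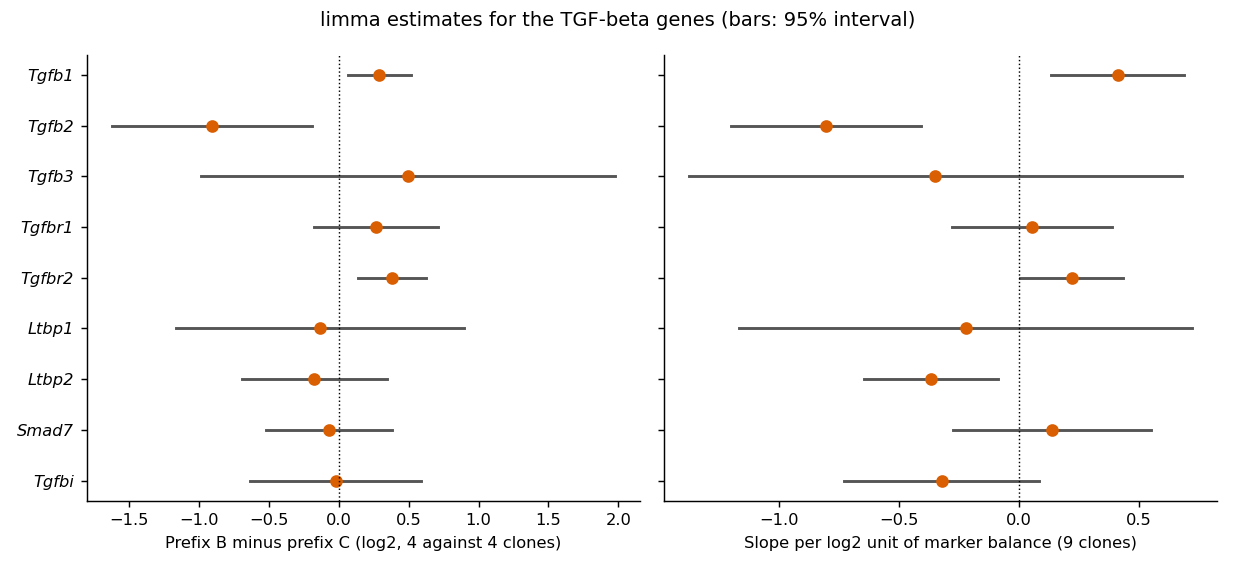
limma estimates (points) with 95% intervals (bars) for the 9 TGF-beta genes, on the log2 scale, for the difference of prefix B minus prefix C (4 libraries each) and for the slope on the marker balance (9 clones). The intervals of Tgfb1 and Tgfb2 lie on opposite sides of 0 in both, and no adjusted p is under 0.05.

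The clones were then placed along a marker balance, the mean log2 level of the macrophage markers minus that of the fibroblast markers. It was 2.503 in A1, 4.01 ± 0.46 in prefix B and 3.11 ± 0.40 in prefix C (SD, n = 4 each), with clones of the last 2 overlapping between 3.57 and 3.64. Slopes are log2 changes per log2 unit of the balance, from limma across 14675 genes, the marker genes being left out. None of the 9 genes passed at an adjusted p under 0.05, by limma or by voom, beside 16 of 14675 genes called (0.109%), 1 rising with the balance (0.00681%) and 15 falling (0.102%). An unadjusted p under 0.05 was found for 4 of the 9 and for 2988 of the 14675 genes (20.4%).

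Tgfb2 had the smallest p among the 9 genes, with a slope of -0.81 (SE 0.18, 95% interval -1.20 to -0.41, adjusted p = 0.115). Tgfb1 had a slope of 0.41 (SE 0.12, 0.13 to 0.69, adjusted p = 0.149), Ltbp2 one of -0.37 (SE 0.12, -0.65 to -0.09, adjusted p = 0.167) and Tgfbr2 one of 0.22 (SE 0.096, 0.00 to 0.43, adjusted p = 0.239). The estimates for Tgfb1 and Tgfb2 thus had opposite signs, but neither passed the test. Without A1 the slope of Tgfb1 was 0.23 (adjusted p = 0.365), and without B2 that of Tgfb2 was -0.53 (adjusted p = 0.092). With prefix as a term, the slope of Tgfb1 was 0.09, that of Tgfb2 -0.81 (adjusted p = 0.999) and that of Ltbp2 -0.67, and 0 genes were called in all, 661 having an unadjusted p under 0.05. On the macrophage markers alone, where 2108 genes were called (14.4%) with 1259 rising (8.58%) and 849 falling (5.79%), Tgfbr2 was 1 of those rising, with a slope of 0.81 (SE 0.16, adjusted p = 0.0176), and Tgfb1 had a slope of 1.07 (adjusted p = 0.0545). The part of cell makeup in these values was not tested.

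**Figure D4:**
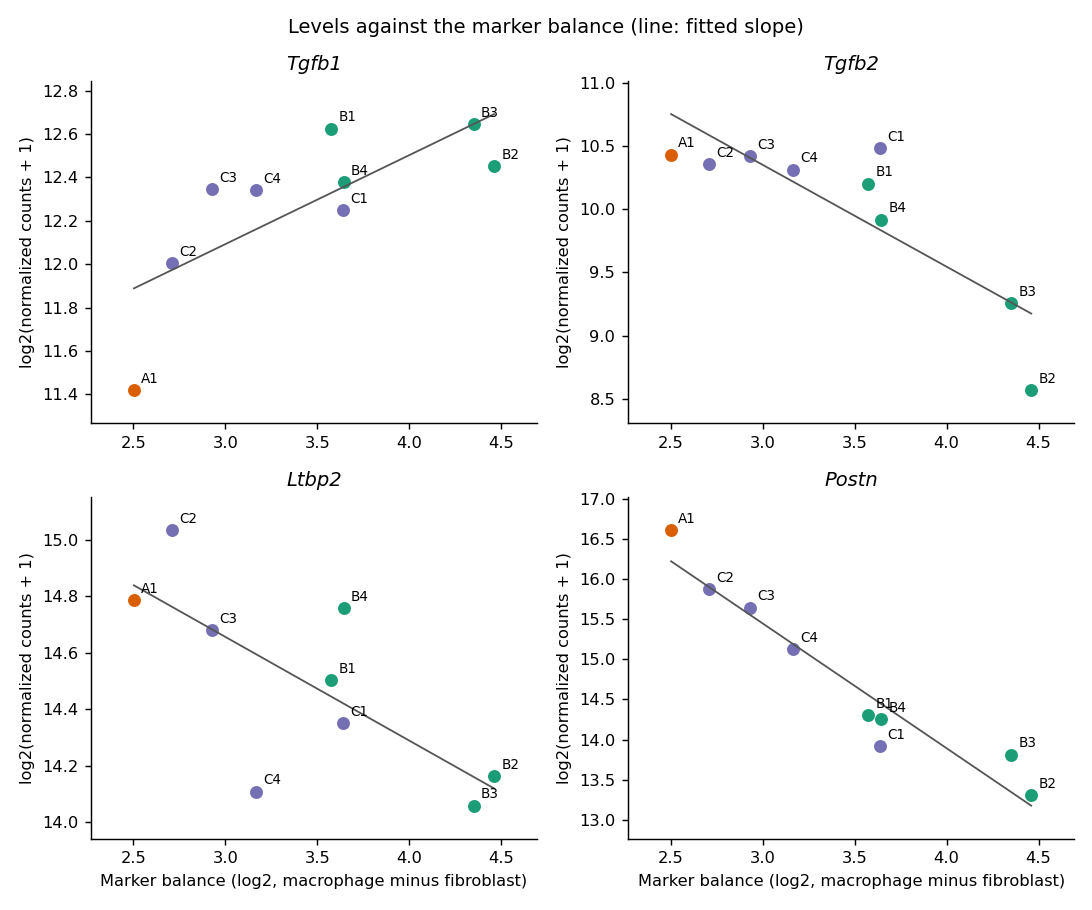
log2(normalized counts + 1) of Tgfb1, Tgfb2, Ltbp2 and Postn (vertical axes) against the marker balance of each clone (horizontal axes, mean log2 of macrophage minus fibroblast markers), 1 point a clone (prefix A orange, B green, C purple), with the fitted slope as a line. A1 has the lowest balance (2.503), and the slopes are 0.41 for Tgfb1 and -0.81 for Tgfb2.

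Whether clones with more ligand mRNA also had more Smad7 or Tgfbi mRNA was tested in 6 relations over the 9 clones, with exact two-sided permutation tests over 362880 pairings and adjustment over the 6. None passed. Tgfb3 and Tgfbi were closest, with a Pearson r of 0.625 (exact permutation p = 0.0728, adjusted 0.437) and a Spearman rho of 0.583 (exact permutation p = 0.108, adjusted 0.648). With the 2 clones most distant from the Tgfb3 median left out, r was 0.806 (adjusted p = 0.201 by the exact permutation test), and 0.647 when 8 clones were centered within prefixes B and C. Both genes were at their highest in C3.

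Tgfb1 and Smad7 had an r of 0.384 and a rho of -0.0167 (exact permutation p = 0.307 and 0.982), and the r rested on A1, which was lowest for both genes. Without A1 the r was -0.586, with the 2 clones most distant from the Tgfb1 median left out -0.406, and within prefixes -0.755 (exact permutation p = 0.0486, adjusted 0.292). The rho within prefixes was -0.857 (exact permutation p = 0.0156, adjusted 0.0936). Tgfb1 and Tgfbi had an r of -0.379 and a rho of -0.117 (exact permutation p = 0.32 and 0.776), and r became 0.0630 without A1, 0.0546 without the most distant 2 clones and 0.130 within prefixes. For Tgfb2 the r was 0.0143 with Smad7 and 0.139 with Tgfbi, and for Tgfb3 with Smad7 it was 0.0514. Their rho was 0.0, 0.117 and 0.35, and the exact permutation p lay between 0.359 and 1.0 for both measures.

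The rest of the pathway was read from 4 lists of 43 genes, of which 42 were in the table. From each list the genes with the most and the fewest normalized counts are given, as examples only, since transcript length enters that order. From 13 genes of latency and activation, Thbs1, encoding the matrix protein thrombospondin 1 that can release the latent ligand, measured 194437 ± 90498 normalized counts (SD, n = 9), and the integrin gene Itgb8 18.9 ± 12.6 with 0 reads in A1, where 3 reads would give 6.56. From 5 receptors and co-receptors, Eng, encoding endoglin, measured 3454 ± 1358 and Bambi, encoding a decoy receptor, 152 ± 67.7. From 9 SMADs and regulators, Ski, encoding a corepressor of SMADs, measured 4984 ± 608 and Zfyve9, encoding the adaptor SARA, 420.0 ± 41.0. From 15 targets, Fn1, encoding fibronectin, measured 276558 ± 70160 and Cdkn2b, encoding the cell cycle inhibitor p15, 433 ± 169. All but Itgb8 of the 42 were above the floor in every clone.

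Between the prefixes, limma and voom each called 0 of these 42 genes, and 15 had an unadjusted p under 0.05, against 20.1% of all tested genes. The median difference of prefix B minus prefix C was -0.10 on the log2 scale over the 42 and -0.27 over the 15 targets, of which 11 were negative, against 0.02 over all tested genes. Several targets, such as Col1a1 and Postn, are matrix genes of fibroblasts. The fibroblast markers also had a lower mean log2 value in prefix B (10.2 against 10.7), with Dcn, Lum and Tcf21 going the other way. The part of cell makeup or sex in these differences was not tested. Prefix B lay wholly below prefix C for 4 of the 42 genes and wholly above for 0, against 4.55% and 5.74% of all tested genes. The 4, named here after their values were seen, were Thbs1, Mmp14, encoding a membrane-bound matrix protease, Acta2, encoding the smooth muscle actin of myofibroblasts, and Snai2, encoding a transcription factor of mesenchymal cells. Acta2 measured 48388 ± 8029 normalized counts in prefix B and 79202 ± 8154 in prefix C (SD, n = 4 each), a difference of -0.72 (SE 0.16, adjusted p = 0.123), and Snai2 288 ± 66.8 and 623 ± 182, a difference of -1.09 (SE 0.25, adjusted p = 0.13). Thbs1 differed by -0.94 and Mmp14 by -0.77, both with an adjusted p of 0.145.

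Along the marker balance, Postn was the 1 gene of the 42 called, falling with a slope of -1.56 (SE 0.16, 95% interval -1.91 to -1.20, adjusted p = 0.0124), and voom also called 1. Postn encodes periostin, a matrix protein of fibroblasts that TGF-beta is known to induce. Because the balance subtracts the fibroblast markers, a gene that rises with them tends to fall along it by construction. The slope of Postn therefore does not tell a TGF-beta response from fibroblast content. It measured 100347 normalized counts in A1, 20188, 10129, 14384 and 19553 in B1 to B4, and 15480.1, 60051, 51198 and 35708 in C1 to C4. A1 was highest, and C1 lay within the range of prefix B. The call was lost without A1 (slope -1.40, adjusted p = 0.0508), without C2 (-1.56, 0.0603) and with prefix as a term (-1.46, 0.466). It was also lost on the macrophage markers alone (-2.65, 0.129) and on the fibroblast markers alone with the sign turned (-1.96, 0.0726), so the slope kept its direction in all 5 settings. Of the 42 genes, 14 had an unadjusted p under 0.05, against 20.4% of all tested genes, and the median slope was -0.08, against -0.26 over the 15 targets and 0.02 over all tested genes. The part of cell makeup in these slopes was not tested.

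**Figure D5:**
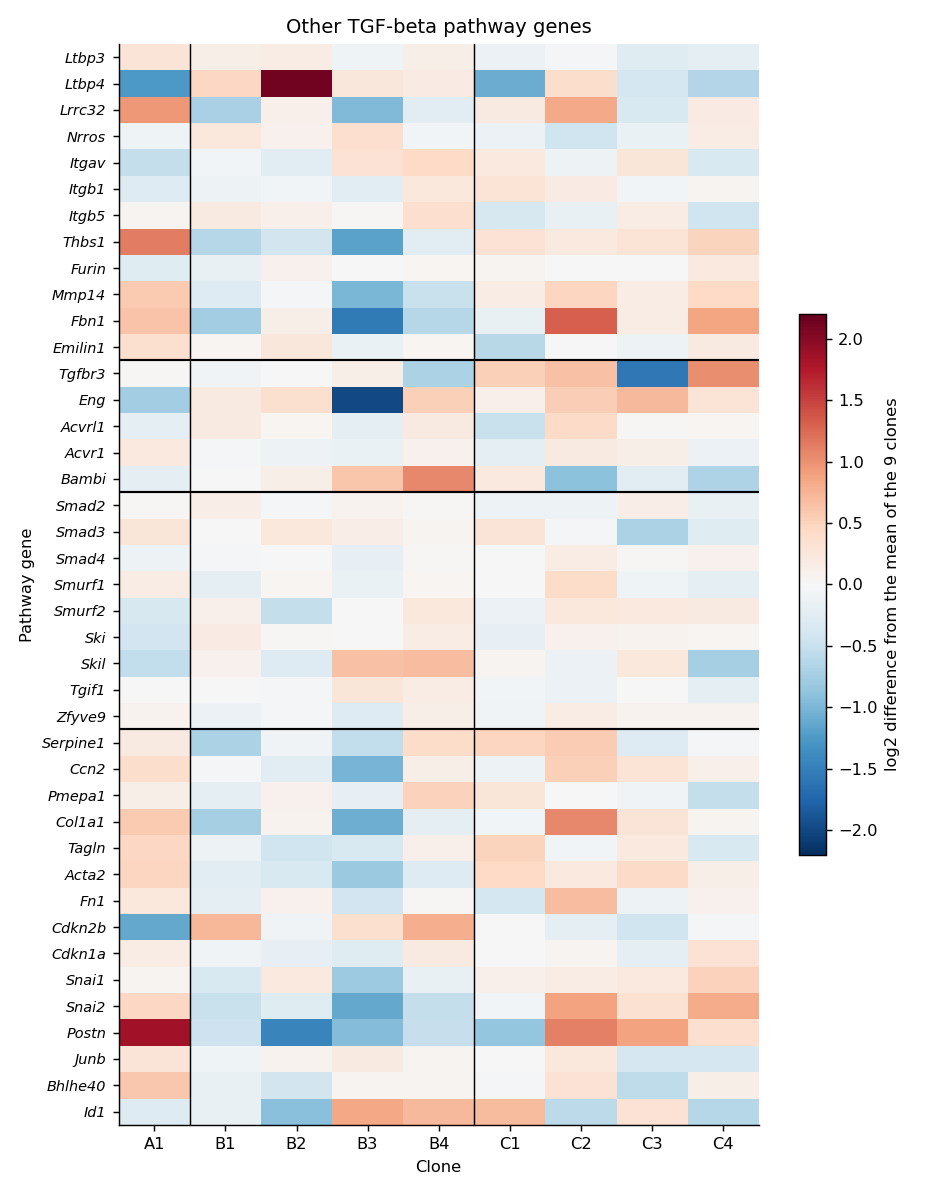
Each cell is 1 gene of the pathway lists (rows, black lines between the lists) in 1 clone (columns), colored by the log2 difference from the gene's mean over the 9 clones (color bar, red higher and blue lower). Itgb8 is left out because it had 0 reads in A1. Postn is highest in A1, and Acta2, Snai2, Mmp14 and Thbs1 are lower in all 4 prefix B clones than in the prefix C clones.

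Genes whose pattern over the 9 clones was most like that of each TGF-beta gene were found by Pearson r of log2 values among 12300 genes whose mean reached 50 normalized counts, as a description with no test. All 9 libraries entered r, the within-prefix values leaving out A1, and over 9 clones a high r is readily met among this many genes. Nearest to Tgfb1 were Rhog, encoding a small GTPase (r = 0.991, 0.967 within prefixes), and Slc11a1, encoding a metal transporter of macrophage phagosomes (0.987 and 0.959). Nearest to Tgfb2 were Popdc2 (0.977) and Rbpms (0.925), and nearest to Tgfb3 were Rbak (0.939) and Cers4 (0.931). Coro1a, encoding an actin-binding protein of leukocytes, was nearest to Tgfbr1 (0.970), followed by AU020206 (0.951). Rnf114 (0.991) and the interferon-inducible GTPase gene Irgm2 (0.965) were nearest to Tgfbr2. For Ltbp1 these were Zfp386 (0.971) and Ndufa11 (0.963), and for Ltbp2 they were Slc4a4 (0.942) and Med14 (0.905). Smad7 was closest to Gm16867 (0.930) and Fgfbp3 (0.926), and Tgfbi to Arhgef10l (0.942) and Ankrd10 (0.930).

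Promoter windows from RefSeq (GRCm38.p6), 300 bases around each start, were found for 7 of the 9 genes, as 9 windows, and were searched on both strands. The SMAD palindrome GTCTAGAC was in 70 of 32851 windows of all genes (0.213%), the CAGA box AGCCAGACA in 127 (0.387%) and the AP-1 site TGANTCA in 2565 (7.81%), and the first 2 share the letters AGAC. The 9 windows held 0 matches, which says only that these letters were not in those windows.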

How the data were processed

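RNA from 9 MPC clones was sequenced by the authors from stranded mRNA libraries. The submitters' processing notes name FastQC 0.11.9, STAR 2.7.10, RSEM 1.3.3 and the GRCm38 genome. The authors deposited 1 table of log2 values, each log2(rescaled read count + 4). Subtracting 4 after taking the antilog gave normalized counts. Whole reads were recovered from their steps, 100.0% of nonzero values under 1000 reads being whole within 0.1 in every library. A further 6 columns, fibroblast libraries of other studies, were not used. Gene identifiers matched a name table for 18033 of 18049 genes, and positions came from RefSeq by symbol.

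Tests used limma 3.58.1 (R 4.3.3) with trend on log2(normalized counts + 1), for genes with a mean of at least 10, adjusted by Benjamini-Hochberg over all genes tested at 0.05. Exact permutation tests were written with numpy 2.4.6, and scipy 1.17.1 gave the ranks for rho and the Wilson intervals. Scripts were tested on simulated data. Levels per transcript length, the other scale planned, were not computed, since exonic lengths were not used here. Pathway genes were named if past the threshold in either fit, or if highest or lowest in level in their list. Outside this rule, Mmp14, Acta2 and Snai2 were named because prefix B lay wholly below prefix C, and Ltbp4 for its distant clone. The 9 genes and the lists were chosen with earlier results of these data known. The closest libraries, B1 and B4, still differed beyond sampling noise (chi-square per degree of freedom 22.6 over 15353 genes). The labels do not say whether clones came from separate mice, so p-values measure only the spread between these libraries, which may be technical. Alternatives were other scalings, pseudocounts of 0.1 and 4, no filter or a mean of at least 50, voom on the recovered reads, prefix as a term, each marker list alone, and leaving out each clone.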

Additional observations from a re-analysis of the deposited data

Results flagged for a closer look

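A clone was far from the others for 3 of the 51 TGF-beta and pathway genes, by the gap to the nearest clone as a share of the whole range. This is close to the 2.55 genes that chance alone gives, about 1 in 20. Ltbp1 had a gap of 0.61 of its range, with 3799 normalized counts in A1 and 1753 in the next clone. Ltbp4, another latent TGF-beta binding protein gene, had a gap of 0.758, with 1286 in B2 and 404.6 in the next. Fn1 had a gap of 0.503, with 432514 in C2 and 316245 in A1.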

How the results depend on the processing

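No paired analysis was possible because the 9 clones form 1 group, with no second group to pair them with. Between prefixes B and C, 29 genes were called, against 19 with no filter on low values, where more genes were tested. With each clone left out the count was 10 (B1), 14 (B2), 12 (B3), 17 (B4), 18 (C1), 14 (C2), 259 (C3) and 9 (C4). Along the marker balance 16 genes were called, against 10 rescaled to the upper quartile, 8 with no filter, 7 by voom, 0 with prefix as a term (661 at an unadjusted p under 0.05), 2108 on the macrophage markers alone and 3 on the fibroblast markers alone. Without A1 it was 5, without B2 299, without B3 3, without B4 7, without C2 1, without C3 10 and without C4 8, and the cause was not tested. Of the 9 genes, only Tgfbr1 (prefixes, without C3) and Tgfbr2 (macrophage markers alone) passed in any of these settings. The estimates that changed direction had an adjusted p over 0.05 both in the reported fit and where they turned. With a clone left out, the prefix difference ran from -0.43 to 0.26 for Ltbp1, from -0.22 to 0.035 for Smad7 and from -0.24 to 0.19 for Tgfbi, and the balance slope from -0.048 to 0.14 for Tgfbr1, from -0.48 to 0.33 for Ltbp1 and from -0.10 to 0.28 for Smad7. With prefix as a term the slope was -0.19 for Tgfbr1, 1.01 for Ltbp1 and -0.13 for Smad7. It was -0.37 for Smad7 on the macrophage markers alone and -0.077 for Tgfbr1 on the fibroblast markers alone with the sign turned. The r of Tgfb1 with Smad7 turned to -0.406 without the 2 farthest clones, -0.586 without A1 and -0.755 within prefixes, that of Tgfb1 with Tgfbi to 0.0546, 0.0630 and 0.130, and without the 2 farthest clones that of Smad7 turned to -0.317 with Tgfb2 and -0.213 with Tgfb3. In no setting did a relation have an adjusted p under 0.05. All 18 rescaled levels of the 9 genes, each the mean of a gene over the 9 clones, moved by less than 1 SD. Rescaling changed any library by at most 0.0678 log2 units (upper quartile) or 0.0492 (library total). Shifts this small could not move a mean by 1 SD for any of the 9 genes, so this outcome was fixed beforehand. Levels per kilobase of transcript were not run. The lowest value of the 9 genes rested on 266 reads, and the interval of the prefix difference of Tgfb3, the widest of the 9, ran from -0.99 to 1.98.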
